A study of Mus musculus with 8 samples.

Results

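The H3.3 peaks described here were those whose midpoint fell in an intron of a protein-coding mouse gene, outside every exon of such genes, outside the 3 kb upstream of a gene's transcription start site (TSS) and outside the 3 kb downstream of a gene's end. By this rule, 30138 of the 75040 peaks in 4 lists were intron peaks. H3.3 carrying an HA tag was mapped by native ChIP-seq, in which chromatin cut with micrococcal nuclease is precipitated with an antibody against the tag. Hira-null mouse embryonic stem cells (mESCs, Clone 104, which is 1 clone) and wild type mESCs (WT, line W9.5), both carrying H3.3-HA, were sampled at day 15 of hanging drop differentiation towards cardiomyocytes and undifferentiated at day 0. A condition was represented by a single ChIP library with its input, so there were no replicates, no difference was tested, and the line and the genotype cannot be told apart. Intervals in parentheses are exact Clopper-Pearson intervals of 95% and cover counting error over peaks only. Cultures at day 15 were mixtures of cells, and fewer cells of a type cannot be told apart from less H3.3 per cell. Peak lists hold no expression values, so the labelled cell types were not checked against markers.

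Unlike the canonical H3 histones, H3.3 can be deposited independently of DNA replication, and it marks sites of nucleosome turnover. The HIRA complex delivers it along transcribed genes and at regulatory elements, while DAXX with ATRX is known for placing it at telomeres and repeats. Introns make up most of the length of most genes. The first intron lies next to the promoter and is known to be rich in enhancers, whereas later introns are reached by transcription elongating towards the 3' end.

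The sequence under the intron peaks differed between lists, and 9 stretches of 140 bases from the middle of peaks are printed first because they show how. They are mm9 plus-strand sequence in lower case, and capitals mark matches, on either strand, to 1 of 9 short motifs searched. The first 5 were chosen because they repeat themselves head to tail, and all but Bptf are among the highest-scoring intron peaks of their list, where several Hira-null day 15 peaks share the top score of 3100. The peak of D15Ertd621e, in intron 15 of 23, had a score of 3100 in Hira-null day 15 cells and overlapped a WT day 15 peak. The stretch at chr15:58270334-58270473 matched itself at 98.1% of bases compared when shifted by 32 bases. Lace1, in intron 6 of 12, was overlapped in all 4 lists (chr10:42122827-42122966, 95.5% identity at a shift of 30 bases). Ppa2, in intron 7 of 11, came from Hira-null day 0 cells (chr3:133015567-133015706, 97.2% at 33 bases). Akap9, in intron 33 of 47, came from WT day 0 cells and had peaks in both day 15 lists (chr5:4053316-4053455, 98.2% at 85 bases). Bptf, which encodes a subunit of the NURF remodelling complex, held a Hira-null day 0 peak in intron 25 of 29 with no peak of another list (chr11:106911196-106911335, identical at every base compared at a shift of 52 bases), and its 3 GC box matches recur with the repeat.
D15Ertd621e, Hira-null day 15: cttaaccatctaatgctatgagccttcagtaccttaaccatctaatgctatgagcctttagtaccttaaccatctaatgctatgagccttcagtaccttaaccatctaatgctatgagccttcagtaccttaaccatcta
Lace1, Hira-null day 15: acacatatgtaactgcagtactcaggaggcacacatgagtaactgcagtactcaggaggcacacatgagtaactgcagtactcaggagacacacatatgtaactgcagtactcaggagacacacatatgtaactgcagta
Ppa2, Hira-null day 0: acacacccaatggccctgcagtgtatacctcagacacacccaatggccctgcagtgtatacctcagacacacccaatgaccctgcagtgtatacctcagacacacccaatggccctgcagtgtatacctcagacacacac
Akap9, WT day 0: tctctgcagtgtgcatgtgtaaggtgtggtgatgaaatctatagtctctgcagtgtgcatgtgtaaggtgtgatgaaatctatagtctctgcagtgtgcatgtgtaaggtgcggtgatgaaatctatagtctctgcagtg
Bptf, Hira-null day 0: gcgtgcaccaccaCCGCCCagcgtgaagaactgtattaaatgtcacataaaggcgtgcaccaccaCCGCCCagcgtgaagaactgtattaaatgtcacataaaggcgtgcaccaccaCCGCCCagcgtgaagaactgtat

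The other 4 stretches come from cardiac, matrix and neuronal genes. Meis1, a TALE homeobox gene required in the heart, had its strongest WT day 15 intron peak in intron 7 of 11 (chr11:18870245-18870384), with a GATA match. Pdlim5, which encodes a PDZ and LIM protein of the Z-disc, had its strongest WT day 15 peak in intron 2 of 12 (chr3:142038454-142038593), also with a GATA match. Col3a1, which encodes type III collagen, had its strongest Hira-null day 15 peak in the last of 50 introns (chr1:45404880-45405019), where 22.1% of bases were G or C and a MEF2 match lay. Dlg2, which encodes a synaptic scaffold protein, had its strongest Hira-null day 0 peak in intron 16 of 25 (chr7:99379646-99379785), with 9 CpG dinucleotides, 2 GC box matches and a TEAD match.
Meis1, WT day 15: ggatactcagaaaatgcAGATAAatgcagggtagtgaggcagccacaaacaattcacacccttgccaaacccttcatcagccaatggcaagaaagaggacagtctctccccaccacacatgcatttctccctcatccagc
Pdlim5, WT day 15: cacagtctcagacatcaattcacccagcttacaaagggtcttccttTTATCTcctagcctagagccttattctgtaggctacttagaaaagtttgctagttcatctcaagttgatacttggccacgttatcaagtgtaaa
Col3a1, Hira-null day 15: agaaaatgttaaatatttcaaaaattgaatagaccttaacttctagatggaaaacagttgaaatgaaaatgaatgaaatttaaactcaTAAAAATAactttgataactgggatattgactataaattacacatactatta
Dlg2, Hira-null day 0: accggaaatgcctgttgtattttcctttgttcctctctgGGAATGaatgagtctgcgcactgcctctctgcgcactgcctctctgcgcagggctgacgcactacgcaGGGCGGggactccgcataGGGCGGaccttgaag

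Tandem repeats were common under Hira-null intron peaks and rare under WT ones. A window of 300 bp around the midpoint was counted as a tandem repeat when at least 80% of its bases matched the same window shifted by some distance of 10 to 100 bp. At day 15 this held for 11.4% (10.1 to 12.8) of 2245 Hira-null windows, against 0.498% (0.390 to 0.625) of 14668 WT windows. At day 0 it held for 4.88% (4.24 to 5.57) of 4185 Hira-null windows and 0.774% (0.604 to 0.977) of 9040 WT windows. Windows around intron points, taken along all introns under the same rule, were tandem repeats in 0.185% of 44890 cases, so both WT lists lay above that share as well. In Hira-null day 15 cells the repeats were more frequent among the strongest peaks. In the highest-scoring decile of Hira-null day 15 intron peaks the share was 32.4% (26.4 to 39.0), against 9.06% in the other peaks of that list. It was 1.36% (0.834 to 2.10) in the highest-scoring decile and 0.402% in the other peaks of the WT day 15 list. At day 0 it was 6.44% (4.29 to 9.24) and 4.70% (4.05 to 5.43) in Hira-null cells, where the intervals overlapped, and 2.77% and 0.553% in WT cells.

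The WT peaks at tandem repeats were mostly those that also had a Hira-null peak. At day 15, 62 of the 73 WT intron peaks at tandem repeats overlapped a Hira-null peak, and the share was 8.82% among overlapped WT peaks and 0.0788% (0.0393 to 0.141) among WT peaks without a Hira-null peak. At day 0, 56 of 70 did. Among Hira-null day 15 intron peaks, 8.94% of those with a WT peak and 12.6% of those without one were tandem repeats. Outside introns the share was 6.09% in the Hira-null day 15 list, 0.619% in the WT day 15 list, 1.61% in the Hira-null day 0 list and 0.767% in the WT day 0 list, so within both Hira-null lists it was lower than in introns. With every list held to its 7332 highest-scoring peaks, the intron shares were 11.4%, 0.750%, 5.38% and 1.22% in the same order, and without chromosomes 8 and 11 they were 11.9%, 0.647%, 4.97% and 0.901%. Whether reads were placed at their true origin in these repeats was not tested.

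**Figure D1:**
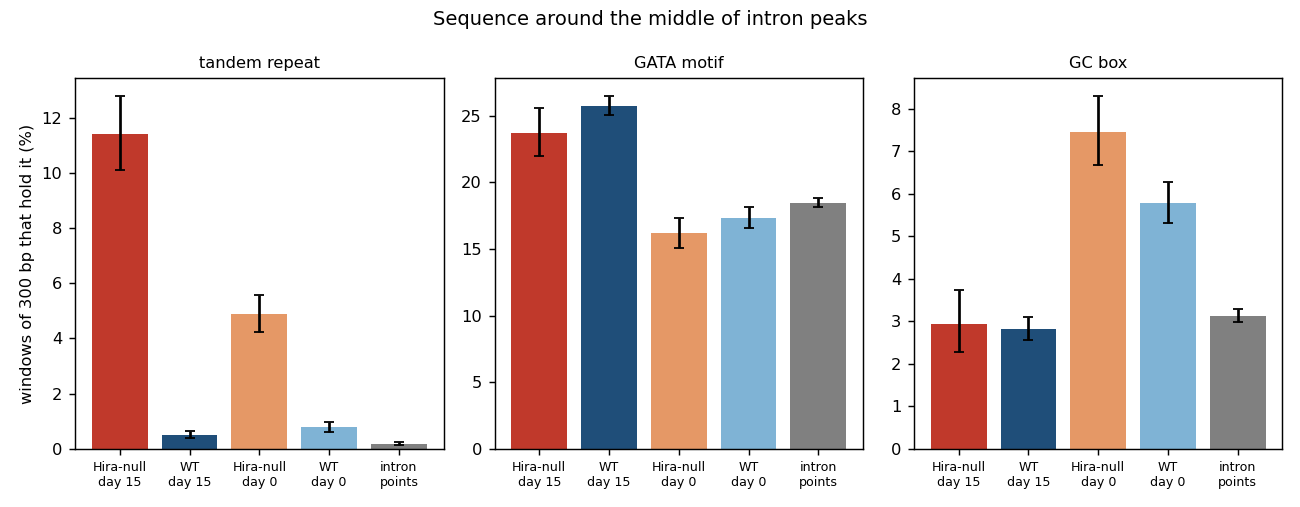
Share of windows of 300 bp around intron peak midpoints, in percent, that are a tandem repeat (left), hold the GATA motif (middle) or hold the GC box (right), for the 4 lists and for intron points. Bars are shares and whiskers exact 95% intervals. Tandem repeats reach 11.4% in the Hira-null day 15 list, the GATA motif stands above the intron points at day 15, and the GC box stands above them at day 0.

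Base composition and several motifs differed between the days. Bases G and C made up 41.9% and 41.5% of the windows in the Hira-null and WT lists of day 15, 45.8% and 44.9% in the Hira-null and WT lists of day 0, and 42.5% at intron points. CpG dinucleotides numbered 8.08 per kb in the Hira-null day 15 list, 8.27 in the WT day 15 list, 15.6 in the Hira-null day 0 list and 10.98 in the WT day 0 list, against 8.83 at intron points. The letters AGATAA, the core bound by GATA factors, were in 23.7% (22.0 to 25.6) of Hira-null and 25.8% of WT day 15 windows. They were in 16.2% of Hira-null and 17.4% of WT day 0 windows and in 18.5% of windows at intron points. CpG dinucleotides also differed between the genotypes at day 0. For GATA, the day 15 lists stood above the intron points in both genotypes, and the Hira-null day 0 list below them. The WT day 0 share was slightly lower, but its interval (16.57 to 18.14) met that of the intron points (18.12 to 18.84). In windows of 100 bp it was 6.38% (5.89 to 6.91), against 6.52% at intron points.

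The letters GGGCGG, the GC box bound by SP and KLF factors, showed the opposite order. They were in 2.94% (2.28 to 3.73) of Hira-null and 2.81% of WT day 15 windows, in 7.46% (6.68 to 8.29) of Hira-null and 5.77% of WT day 0 windows, and in 3.13% of windows at intron points. ATGCAAAT, the octamer bound by POU factors such as OCT4, was found in 2.41% of Hira-null and 1.93% of WT day 15 windows, in 4.78% of Hira-null and 3.56% of WT day 0 windows, and in 2.24% at intron points. Among WT day 0 peaks, those with a Hira-null day 0 peak held the octamer in 7.13% of windows and those without one in 2.85%. Hira-null day 0 peaks showed less of this, with 5.22% (4.1 to 6.5) with a WT peak and 4.56% (3.8 to 5.4) without one. The TEAD letters GGAATG were in 26.8% of the WT day 0 windows with a Hira-null peak and in 17.3% of those without one, against 15.3% at intron points. The part of base composition, which differed between the lists as given above, was not tested, and a match is not a bound site.

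The remaining motifs differed from the intron points in different directions. TGANTCA, the AP-1 site, was found in 9.27% of Hira-null and 12.2% of WT day 15 windows, in 12.7% of Hira-null and 11.6% of WT day 0 windows, and in 8.61% at intron points. TAAAAATA, a MEF2 site, was found in 3.296% of Hira-null and 6.12% of WT day 15 windows and in 2.25% of Hira-null and 3.22% of WT day 0 windows, against 5.78% at intron points, so 3 of the 4 lists lay below the intron points. The letters TGACAG of MEIS factors were in 16.97% of Hira-null and 20.6% of WT day 15 windows and in 15.1% of Hira-null and 18.9% of WT day 0 windows, against 19.1% at intron points. The letters TCAAGGTCA, bound by ESRRB, were in 0.401% of Hira-null and 0.736% of WT day 15 windows and in 1.27% of Hira-null and 1.39% of WT day 0 windows, against 0.673% at intron points. The letters GGGTGTGG, bound by KLF factors, were in 1.29% of Hira-null and 1.67% of WT day 15 windows and in 4.06% of Hira-null and 4.28% of WT day 0 windows, against 1.97% at intron points, so both day 0 lists lay above the intron points for ESRRB and KLF letters. Runs of at least 10 CA units, the commonest microsatellite of mouse introns, were in 0.846%, 0.525%, 0.860% and 0.443% of windows of the Hira-null day 15, WT day 15, Hira-null day 0 and WT day 0 lists, below the 3.01% of intron points in every list.

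Intron peaks took a larger share of the WT than of the Hira-null list at both days. At day 15, 2245 of 7332 Hira-null peaks (30.6%, 29.6 to 31.7) and 14668 of 27272 WT peaks (53.8%, 53.2 to 54.4) were intron peaks. At day 0, 4185 of 17706 Hira-null peaks (23.6%, 23.0 to 24.3) and 9040 of 22730 WT peaks (39.8%, 39.1 to 40.4) were. The same rule placed 35.2% of the ungapped genome in introns, so the share was 0.870 and 1.53 times that of the genome in Hira-null and WT day 15 cells, and 0.672 and 1.13 times in Hira-null and WT day 0 cells. Read depth per library is unknown, so the number of peaks also carries depth. The median width was 764 bp in Hira-null and 961 bp in WT day 15 intron peaks, and 1483 bp in Hira-null and 1075 bp in WT day 0 intron peaks. Within its own list the median score differed little between intron and other peaks, as with 91.2 and 92.2 in Hira-null day 15 cells.

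Chromosomes 8 and 11 held an excess of WT intron peaks. Per Mb of intron, chromosome 11 had 1.01 times the density of the other autosomes in Hira-null day 15 cells, 5.21 times in WT day 15 cells, 0.897 times in Hira-null day 0 cells and 3.25 times in WT day 0 cells. Chromosome 8 had 0.965 and 3.40 times in Hira-null and WT cells at day 15, and 1.09 and 1.85 times at day 0. The X chromosome held 15 Hira-null and 3 WT day 15 intron peaks, and 68 Hira-null and 16 WT day 0 intron peaks. Results were therefore also computed without chromosomes 8 and 11, where the intron share was 30.2% in Hira-null and 52.8% in WT day 15 cells, and 23.3% in Hira-null and 37.8% in WT day 0 cells.

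WT intron peaks leaned towards the 5' end of genes, and Hira-null day 15 intron peaks towards the 3' end. On a scale from 0 at the 5' end to 1 at the 3' end, the median position was 0.543 (0.525 to 0.564) in Hira-null and 0.409 (0.401 to 0.416) in WT day 15 peaks. It was 0.482 (0.470 to 0.497) in Hira-null and 0.430 (0.421 to 0.441) in WT day 0 peaks, and 0.484 at intron points. The last quintile of the gene held 23.9% of Hira-null day 15 peaks, 1.45 times the share of the intron length of the same genes that lies there (16.5%). In WT day 15 peaks it held 13.4%, which was 0.840 times that share. The first quintile held 14.8% of Hira-null and 24.9% of WT day 15 peaks, 0.744 and 1.22 times their genes' share. At day 0 the last quintile held 17.5% of Hira-null and 14.6% of WT peaks, 0.992 and 0.896 times their genes' share.

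**Figure D2:**
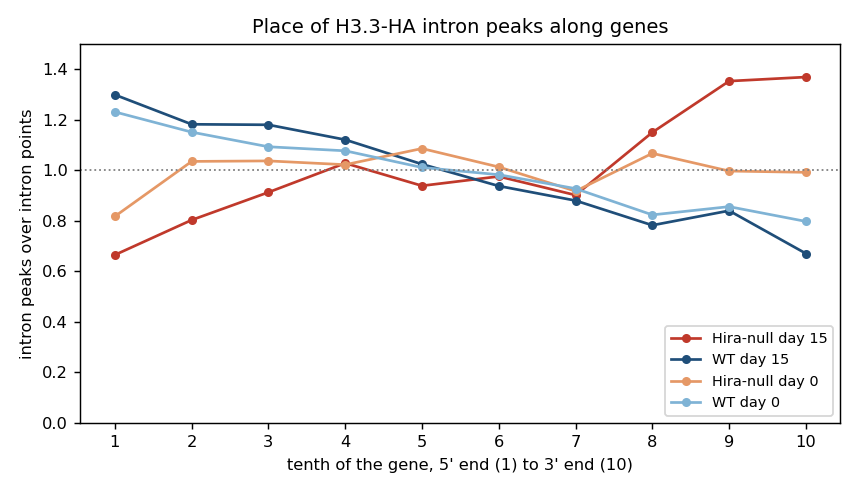
Intron peaks per decile of the gene, from the 5' end (1) to the 3' end (10), divided by the share of intron points in that decile, for the 4 lists (lines). The dotted line at 1 is the intron points. The Hira-null day 15 list is at 0.665 in the first decile and 1.37 in the last, while the WT day 15 list is at 1.299 and 0.670.

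The lean to the 3' end was largest in genes of middle length and in peaks common to both genotypes. It was not seen in the median of genes with the longest introns. In genes with 11.4 to 24.6 kb of intron, the median position of the Hira-null day 15 peaks was 0.695 (0.653 to 0.731), against 0.450 for the WT day 15 peaks. Genes with over 59.6 kb of intron had medians of 0.472 (0.443 to 0.504) and 0.399 in Hira-null and WT day 15 peaks. They held 1252 of the 2176 Hira-null peaks, and the Hira-null median there was not above the 0.484 of all intron points. WT day 15 peaks that overlapped a Hira-null peak had a median of 0.608, and those that did not had 0.400. Hira-null day 15 peaks with a WT peak were at 0.596 and those without one at 0.521. Leaving out the tandem repeats gave medians of 0.550 and 0.408 in Hira-null and WT day 15 peaks, so the difference in position was about as large without them. Peaks wholly inside introns gave 0.5002 and 0.376, both nearer the 5' end, so the Hira-null median was then close to the 0.484 of all intron points.

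The same order held for first introns. On the transcript with the longest coding sequence, 22.7% (20.8 to 24.5) of Hira-null day 15 peaks lay in the first intron, against 35.9% (35.1 to 36.7) of WT day 15 peaks. At day 0 the shares were 27.2% (25.8 to 28.6) in Hira-null and 33.1% (32.1 to 34.1) in WT peaks. First introns made up 28.6%, 29.1%, 27.3% and 28.4% of the intron length of the peaks' own genes in the Hira-null day 15, WT day 15, Hira-null day 0 and WT day 0 lists. The peaks were thus at 0.793 and 1.24 times this length share in Hira-null and WT day 15 cells, and at 0.994 and 1.17 times in Hira-null and WT day 0 cells. The last of several introns held 11.8% of Hira-null and 5.35% of WT day 15 peaks, and 8.21% of Hira-null and 6.67% of WT day 0 peaks. Lists of equal length gave first-intron shares of 22.7%, 36.5%, 26.2% and 32.3% in the same order of lists.

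**Figure D3:**
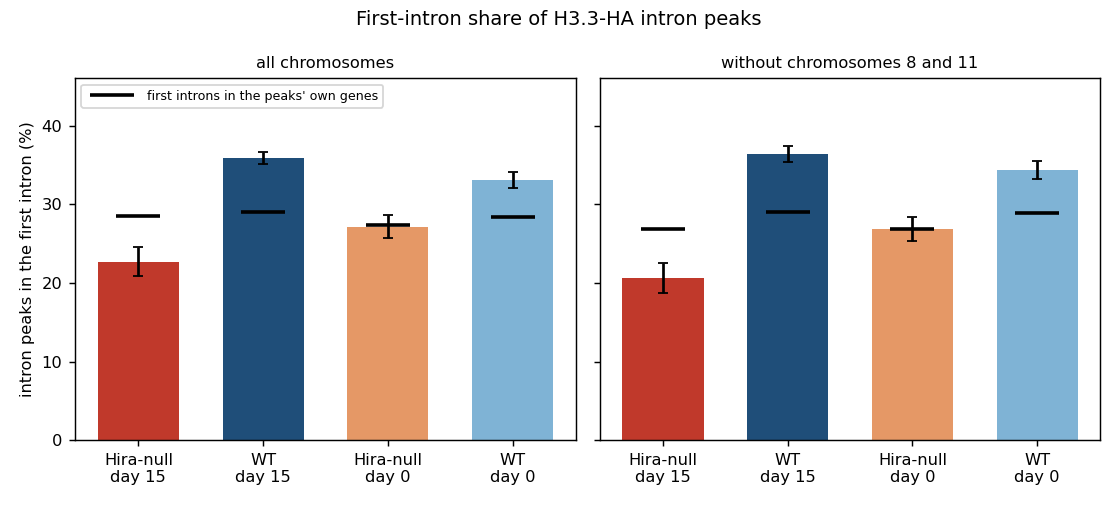
Share of intron peaks in the first intron, in percent, for the 4 lists over all chromosomes (left) and without chromosomes 8 and 11 (right). Bars are shares, whiskers exact 95% intervals and black lines the share of first introns in the intron length of the same genes. Hira-null day 15 peaks lie below their line (22.7% against 28.6%) and WT day 15 peaks above it (35.9% against 29.1%).

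Close to the 5' end, WT peaks were more frequent than Hira-null peaks. Between 1 and 5 kb of it lay 5.74% (4.80 to 6.81) of Hira-null and 10.4% (9.90 to 10.9) of WT day 15 intron peaks, and 5.16% of Hira-null and 8.86% of WT day 0 intron peaks, against 6.03% of intron points. Beyond 100 kb lay 24.3% of Hira-null and 15.1% of WT day 15 peaks, and 30.1% of Hira-null and 17.96% of WT day 0 peaks, against 38.2% of intron points. All 4 lists thus held a smaller share beyond 100 kb than the intron points, pooled over all genes. Places within long genes were not compared by distance.

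Most intron peaks of 1 genotype had no peak of the other, and in WT this was more frequent in introns than elsewhere. Of WT day 15 intron peaks, 95.2% (94.9 to 95.6) overlapped no Hira-null day 15 peak by 1 bp or more, against 88.1% (87.5 to 88.7) of the list's other peaks and 91.9% of the whole list. Of WT day 0 intron peaks, 83.4% (82.6 to 84.2) overlapped no Hira-null day 0 peak, against 65.6% (64.8 to 66.4) of other peaks and 72.7% of the list. Hira-null intron peaks did not show this. Without a WT peak of the day were 67.6% (65.6 to 69.6) of Hira-null day 15 intron peaks and 69.9% of other peaks (69.2% of the list), and 66.6% of Hira-null day 0 intron peaks and 67.4% of other peaks (67.2% of the list). Without chromosomes 8 and 11, the share without a Hira-null peak was 93.9% of WT day 15 and 80.9% of WT day 0 intron peaks. List length moved these shares, and the number of possible partners differed between introns and elsewhere. At day 15 there were 2245 Hira-null for 14668 WT intron peaks, and 5087 for 12604 peaks outside introns. At day 0 there were 4185 for 9040 and 13521 for 13690. The part of these numbers in the gap between introns and elsewhere was not tested. With every list held to its 7332 highest-scoring peaks, 83.3% of Hira-null and 91.4% of WT day 15 intron peaks, and 74.9% of Hira-null and 84.7% of WT day 0 intron peaks, had no peak of the other genotype.

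First introns held the WT peaks that were least often found in Hira-null cells. In WT day 15 cells 97.5% (97.0 to 97.9) of first-intron peaks and 94.2% (93.7 to 94.7) of later-intron peaks had no Hira-null peak, and in WT day 0 cells 86.1% (84.8 to 87.4) and 82.1% (81.1 to 83.1). At day 15 there were 458 Hira-null for 4877 WT first-intron peaks, and 1564 for 8715 later-intron peaks. The part of these numbers in the difference was not tested. Strong peaks were more often common to both genotypes. In the highest-scoring decile, 38.7% of Hira-null and 87.3% of WT day 15 intron peaks had no peak of the other genotype, against 74.8% and 96.8% in the lowest-scoring decile. At day 0 these shares were 20.1% and 72.5% in the highest decile of the Hira-null and WT lists, and 83.3% and 87.9% in the lowest.

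Between days, intron peaks of a genotype were mostly in different places. In WT cells the share was higher in introns than elsewhere at day 15 and lower at day 0. Of Hira-null day 15 intron peaks 76.4% had no Hira-null day 0 peak (76.5% of the list and 76.55% of peaks outside introns). Of Hira-null day 0 intron peaks 88.1% had no day 15 peak (90.8% of the list and 91.6% of peaks outside introns). Of WT day 15 intron peaks 80.8% (80.1 to 81.4) had no WT day 0 peak. This compares with 78.0% of the list and 74.8% (74.1 to 75.6) of peaks outside introns. Of WT day 0 intron peaks 69.7% (68.7 to 70.7) had no day 15 peak. This compares with 74.3% of the list and 77.3% (76.6 to 78.0) of peaks outside introns. Without chromosomes 8 and 11, 77.9% of WT day 0 intron peaks had no WT day 15 peak, and the matching share outside introns is not given here. In the WT day 15 list 11335 intron peaks (77.3%) overlapped no peak of the other 3 lists. In the same list 98 intron peaks overlapped all 3, and 25.5% of these were tandem repeats. The matching counts over all peaks of the list are not given here, so these numbers do not set introns apart.

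**Figure D4:**
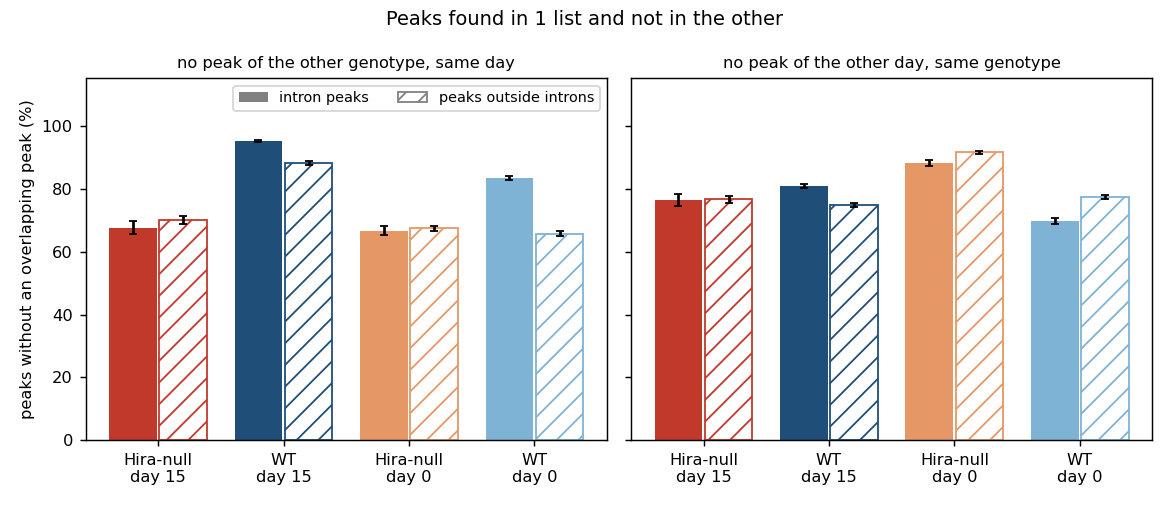
Share of peaks, in percent, without an overlapping peak of the other genotype on the same day (left) and of the other day in the same genotype (right), for the 4 lists. Filled bars are intron peaks, hatched bars the list's other peaks and whiskers exact 95% intervals. The WT lists differ most between intron and other peaks, with 95.2% against 88.1% at day 15 and 83.4% against 65.6% at day 0 on the left.

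Per gene, WT intron peaks came in larger groups in the full lists. Of 18588 genes with an intron under the rule, 1560 (8.39%) held a Hira-null day 15 intron peak and 4702 (25.3%) a WT day 15 one, while 2527 (13.6%) held a Hira-null day 0 intron peak and 4224 (22.7%) a WT day 0 one. With lists of equal length the numbers were closer, at 1560 Hira-null and 1933 WT genes at day 15 and 1230 Hira-null and 1858 WT genes at day 0. These genes then held 2317 Hira-null and 3981 WT peaks at day 15, and 1681 Hira-null and 2847 WT peaks at day 0. In the full lists, genes with a peak held a mean of 1.49 in Hira-null and 3.21 in WT day 15 cells, and of 1.70 in Hira-null and 2.19 in WT day 0 cells. At least 5 peaks were found in 32 genes of the Hira-null and 859 of the WT day 15 list, and in 101 of the Hira-null and 386 of the WT day 0 list. Without chromosomes 8 and 11 these were 27 and 548 genes at day 15, and 93 and 251 at day 0. At day 15, 992 genes had intron peaks in both genotypes, which is 63.6% of the Hira-null and 21.1% of the WT genes. At day 0, 1618 genes did, 64.0% of the Hira-null and 38.3% of the WT genes. Genes with peaks were long, with a median of 64.5 kb of intron in Hira-null and 46.2 kb in WT day 15 cells, and 79.6 kb and 55.4 kb at day 0, against 17.0 kb for all genes.

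The genes with the most intron peaks in WT day 15 cells lay on chromosomes 8 and 11. Gm20388, a gene model that spans 3825.8 kb of intron on chromosome 8, held 53 Hira-null and 197 WT day 15 peaks, and 45 Hira-null and 51 WT day 0 peaks. It and Fgfr2, which has 2707.6 kb of intron in this annotation, are far longer than the transcripts inside them. Palld, the actin-bundling protein palladin (chromosome 8), held 1 Hira-null and 57 WT day 15 peaks, and 1 Hira-null and 9 WT day 0 peaks. Pard3, a cell polarity scaffold (chromosome 8), held 5 and 54 at day 15 and 3 and 7 at day 0 in Hira-null and WT cells. Usp34, a ubiquitin protease (chromosome 11), held 2 and 54 at day 15 and 1 and 32 at day 0. Ankrd11, a chromatin cofactor (chromosome 8), held 0 Hira-null and 49 WT day 15 peaks, and 1 and 18 at day 0.

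Outside chromosomes 8 and 11, long genes held many more WT than Hira-null intron peaks at day 15. Macf1, a linker of actin and microtubules, held 0 Hira-null and 40 WT day 15 peaks, and 4 Hira-null and 31 WT day 0 peaks. Rere, an atrophin family corepressor, held 3 Hira-null and 39 WT peaks at day 15, and 1 and 8 at day 0. Sox5, an SRY-related factor, held 3 and 38 at day 15 and 7 and 8 at day 0. Pde3a, the cAMP phosphodiesterase of cardiac and smooth muscle, held 0 Hira-null and 26 WT day 15 peaks, against 0 and 1 at day 0. Trip12, a ubiquitin ligase, held 0 and 20 at day 15 and 0 and 21 at day 0, so its peaks were found in WT cells at both days and in neither Hira-null list.

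At day 15, 568 genes had a Hira-null and no WT intron peak, and 3710 a WT and no Hira-null one. Among the genes with the largest excess in Hira-null cells were Fubp1, Igf2r and Mid1. Fubp1, which binds an element upstream of Myc, held 8 Hira-null and 2 WT peaks, but the WT peak from 151888406 to 151893012 on chromosome 3 covered the ground of several Hira-null ones. Igf2r, the imprinted IGF2 receptor, held 10 Hira-null and 5 WT peaks. Its strongest, from 12935187 to 12939525 on chromosome 17 in intron 2, had a score of 1212 in Hira-null day 15 cells, overlapped a Hira-null day 0 peak with a score of 124 and overlapped no WT peak. That intron is known to hold the imprinted start of the antisense transcript Airn. Mid1, which crosses the boundary of the pseudoautosomal region in mice, held 7 Hira-null and 0 WT day 15 peaks, all between 0.892 and 0.994 of the gene. It lies on the X chromosome, which held only 3 WT day 15 intron peaks in all, against 15 Hira-null ones. Counts per gene are not the same as signal, because 1 wide peak can stand where another list has several.

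In Hira-null day 0 cells, the excess over WT lay in other genes. Prkar1b, a regulatory subunit of protein kinase A, held 9 Hira-null and 1 WT day 0 peaks. Sdk1, a synaptic adhesion molecule, held 9 and 1, and Cntn5, a neuronal contactin, held 7 and 0 in Hira-null and WT day 0 cells. None of these 3 genes had an intron peak in either day 15 list. The 7 peaks of Cntn5 lay in introns 3 and 13 of 24, between 706.8 and 1016 kb from the 5' end. Dnahc8, an axonemal dynein, held 13 Hira-null and 6 WT day 0 peaks, and 3 in each day 15 list.

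Genes known from pluripotent cells held most of their intron peaks in WT day 0 cells. Of 19 pluripotency genes, 10 held a WT day 0 intron peak and 4 a Hira-null day 0 one, with 74 and 10 peaks in WT and Hira-null lists. Over all genes 22.7% had a WT and 13.6% a Hira-null day 0 peak, and the list's 12.7 WT day 0 peaks per 100 kb of intron compare with 1.01 over all genes. Its median was 1 peak a gene in WT day 0 cells and 0 in the other lists, against 0 over all genes. Jarid2, a Polycomb cofactor, held 3 Hira-null and 33 WT day 0 peaks, and 1 and 9 at day 15. Tet1, the methylcytosine dioxygenase, held 2 Hira-null and 19 WT day 0 peaks, the strongest WT one from 62355296 to 62362073 on chromosome 10 in intron 1. Esrrb held 4 Hira-null and 11 WT day 0 peaks, and Zfp42, which encodes REX1, 1 and 5. Holding the lists to equal length left 2 Hira-null and 5 WT genes of this list with a day 0 peak.

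Over all genes, 8.39% held a Hira-null and 25.3% a WT day 15 intron peak, and 13.6% a Hira-null and 22.7% a WT day 0 one. Of the genes with the longest introns, over 59.6 kb, 22.1% held a Hira-null and 51.8% a WT day 15 peak, and 40.1% a Hira-null and 54.0% a WT day 0 one. Cardiac transcription factors held intron peaks in 5 Hira-null and 11 WT genes of 23 at day 15, and in 3 Hira-null and 10 WT genes at day 0 (21.7%, 47.8%, 13.0% and 43.5%), so the Hira-null day 0 share was close to that of all genes. Their median was 0 peaks a gene in every list, as over all genes. Tead1, the Hippo pathway factor, held 0 Hira-null and 24 WT day 15 peaks, 14 of them in the first intron, and 0 and 5 at day 0. Foxp1, a forkhead repressor, held 0 and 8 at day 15 and 0 and 3 at day 0. Gata4 was an exception, with 5 Hira-null and 6 WT day 15 peaks, and 1 and 0 at day 0. Its Hira-null day 15 scores were 50.5 to 107 and its WT scores 51.6 to 182. Tbx5 held 2 Hira-null and 0 WT day 15 peaks. Meis1, with 0 Hira-null and 31 WT day 15 intron peaks, lies on chromosome 11, and the list held 9 Hira-null and 51 WT day 15 peaks without chromosomes 8 and 11, against 10 and 90 with them.

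Sarcomere and calcium handling genes had an intron peak in 5 Hira-null and 9 WT genes of 18 at either day, above the shares of all genes. Their median of 130.5 kb of intron puts them with the longest genes, and at day 15 these shares were near those of genes with over 59.6 kb of intron (22.1% and 51.8%). Tpm1, which encodes tropomyosin of the thin filament, held 6 Hira-null and 6 WT day 15 peaks and none at day 0. Its strongest Hira-null peak, from 66874616 to 66878038 on chromosome 9, had a score of 734. It lay in the last intron, at 0.779 of the gene, and overlapped a WT day 15 peak. The strongest WT peak lay at 0.159, had a score of 239 and overlapped no Hira-null peak. Scores are not comparable between lists. Pdlim5 held 0 Hira-null and 9 WT day 15 peaks, and 1 and 2 at day 0. Nexn, an actin-binding protein of the Z-disc, held 4 and 8 at day 15 and 0 and 2 at day 0. Ryr2, the calcium release channel, held 4 and 5 at day 15 and 5 and 4 at day 0 in Hira-null and WT cells.

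Extracellular matrix genes had an intron peak in more Hira-null than WT genes at day 15, as did only the long neuronal genes among the 9 lists, with 11 and 10 of 17 (64.7% and 58.8%, against 8.39% and 25.3% of all genes). The list's median was 1 peak a gene in both, against 0 over all genes. Its genes had a median of 65.0 kb of intron. Of genes with over 59.6 kb, 22.1% held a Hira-null and 51.8% a WT day 15 peak, so the list's WT share was nearer to that of long genes. The genes and places differed. Col1a1, Col1a2, Col5a1, Col5a2 and Thbs1 held peaks in Hira-null but not in WT day 15 introns. Col4a1 and Col4a2, the neighbouring basement membrane collagen genes of chromosome 8, held 25 and 22 WT day 15 peaks and 0 Hira-null ones. The median position of the list's peaks was 0.846 in Hira-null and 0.354 in WT day 15 cells, with 11 of 19 Hira-null and 4 of 80 WT peaks in the last quintile of the gene. Fn1, which encodes fibronectin, held 4 Hira-null day 15 peaks between 0.859 and 0.982 of the gene and 1 WT peak at 0.271. Col3a1 held 4 Hira-null peaks, 3 of them between 0.781 and 0.958, and 1 WT peak at 0.134. Col1a2 held 1 Hira-null peak with a score of 628 at 0.953, in the last of 51 introns by its midpoint. That peak, from 4488033 to 4491567 on chromosome 6, ran past the end of the gene at 4491543. The strongest Hira-null peak of Col3a1, from 45403520 to 45406380 on chromosome 1, reached close to the gene's end at 45406551. Such peaks are not confined to introns, and the list's positions were not recomputed without them. With lists of equal length, 11 Hira-null and 5 WT genes had a peak, and with a score of at least 100, 7 of each did.

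In smooth muscle and cytoskeleton genes, Hira-null day 15 peaks also lay further towards the 3' end than WT ones. Intron peaks were in 6 Hira-null and 9 WT genes of 16 at day 15 (37.5% and 56.3%, against 8.39% and 25.3% of all genes), and in 4 and 8 at day 0, against 13.6% and 22.7% of all genes. The median position of the day 15 peaks was 0.838 over 20 Hira-null peaks and 0.405 over 52 WT peaks. Myh9 alone held 10 of these Hira-null peaks, so the Hira-null median rests largely on 1 gene. Other lists differed from this at day 15. Signalling genes had medians of 0.407 over 9 Hira-null and 0.413 over 95 WT peaks. Chromatin regulators had medians of 0.268 over 13 Hira-null and 0.388 over 156 WT peaks. Myh9, non-muscle myosin heavy chain, held 10 Hira-null and 7 WT day 15 peaks, and 0 and 3 at day 0, and 5 of its Hira-null peaks lay at 0.837 of the gene or beyond. Vcl, which encodes vinculin, held 0 and 10 at day 15 and 1 and 3 at day 0.

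Signalling receptors and effectors, and chromatin regulators, had peaks in more WT than Hira-null genes in the full lists. Of 25 signalling genes, 4 held a Hira-null and 22 a WT day 15 intron peak, and 6 and 15 did at day 0 (against 8.39%, 25.3%, 13.6% and 22.7% of all genes in the Hira-null day 15, WT day 15, Hira-null day 0 and WT day 0 lists), with medians of 0, 3, 0 and 1 peaks a gene in the same order. With lists of equal length, 4 Hira-null and 12 WT genes at day 15, and 3 and 4 at day 0, held one. With a score of at least 100 the day 0 order turned, with 5 Hira-null and 4 WT genes. The list's genes were long, with a median of 82.8 kb of intron against 17.0 kb for all genes. Bmpr2, a BMP receptor, held 0 Hira-null and 10 WT day 15 peaks, and Tcf7l2, a WNT effector, also held 0 and 10. Rbpj, the nuclear effector of NOTCH, held 0 and 6 at day 15 and 6 and 20 at day 0. Of 25 chromatin regulators, 9 held a Hira-null and 20 a WT day 15 peak, and 10 and 20 did at day 0. These are 36.0%, 80.0%, 40.0% and 80.0%, against 8.39%, 25.3%, 13.6% and 22.7% of all genes, with medians of 0, 4, 0 and 2 peaks a gene. This list had a median of 106 kb of intron, and its Hira-null day 0 share was near the 40.1% of genes with over 59.6 kb. Ncor1, a nuclear receptor corepressor on chromosome 11, held 0 and 33 at day 15 and 3 and 34 at day 0. Nsd1, a histone H3 lysine methyltransferase, held 0 and 17 at day 15 and 0 and 8 at day 0. Chd2, a chromatin remodeller, held 2 and 18 at day 15 and 1 and 11 at day 0.

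Long neuronal and synaptic genes ran the other way in the number of genes with a peak. At day 15 these were 6 Hira-null and 4 WT genes of 19 (31.6% and 21.1%, against 8.39% and 25.3% of all genes). At day 0 they were 16 and 13 (84.2% and 68.4%, against 13.6% and 22.7%), with medians of 5 and 2 peaks a gene. Of genes with over 59.6 kb of intron, 22.1% and 51.8% held a peak at day 15, and 40.1% and 54.0% at day 0. The list's peaks at day 15 numbered 14 in Hira-null and 17 in WT cells, so they did not run the other way. The introns of these genes are long, with a median of 1397 kb. Hira-null day 0 peaks numbered 0.305 per 100 kb of intron against 0.468 over all genes, so per length the list was not richer than other genes. The WT day 15 density was 0.0656 per 100 kb against 1.65 over all genes. Pcdh15, a protocadherin, held 8 Hira-null and 2 WT day 0 peaks, and Lrp1b, a lipoprotein receptor family member, 6 and 2. Macrod2 held 6 Hira-null and 13 WT day 15 peaks, which is 13 of the 17 WT day 15 peaks of the list.

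**Figure D5:**
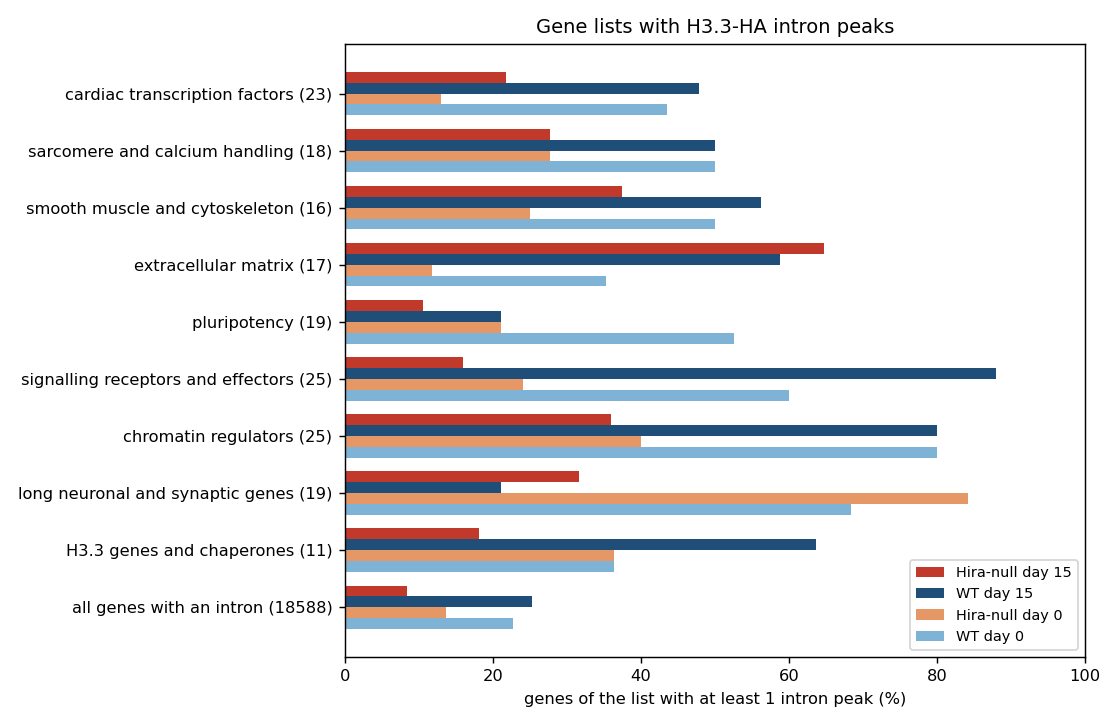
Share of genes with at least 1 intron peak, in percent, in 9 gene lists and over all 18588 genes with an intron, for the 4 lists of peaks (bars). Numbers in parentheses are genes found. Pluripotency genes are highest in WT day 0 cells (52.6%), signalling genes in WT day 15 cells (88.0%), matrix genes are near each other in Hira-null and WT day 15 cells (64.7% and 58.8%), and long neuronal genes are highest in Hira-null day 0 cells (84.2%).

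Among 11 genes of H3.3 and its chaperones, 2 held a Hira-null and 7 a WT day 15 intron peak, and 4 did in each list of day 0. These are 18.2% and 63.6% at day 15, against 8.39% and 25.3% of all genes, and 36.4% at day 0, against 13.6% and 22.7% of all genes. Hira itself held 2 Hira-null day 15 peaks, in introns 5 and 6 of 24, from 18908710 to 18912172 on chromosome 16, with scores of 164 and 146. A Hira-null day 0 peak with a score of 337 covered the same ground, from 18908618 to 18913255, and no WT peak of either day overlapped it. The WT day 15 list had 1 peak in intron 1 of Hira, with a score of 55.6. The place of the deletion was not given in the sources used here, so these peaks do not check the genotype. H3f3a, which encodes H3.3, held 3 Hira-null and 2 WT day 15 peaks, and 0 and 1 at day 0. Asf1a, a chaperone of H3 and H4, held 0 and 3 at day 15 and 0 and 1 at day 0.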

How the data were processed

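H3.3-HA ChIP-seq peak lists of 4 conditions were used, 1 list per condition. Per the paper's methods and the submitters' processing notes, the authors aligned reads to mm9 with Bowtie, removed duplicates with Samtools and called peaks with MACS 1.4.2. The deposited score of each peak is that of the peak caller, 10 times the negative log10 of its p-value, with a lowest score of 50. Scores grow with read depth, which is unknown, and were ranked within a list only. The input libraries and the control used for each list were not analysed here.

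Genes came from GENCODE mouse M1 and sequence from NCBIM37, the same assembly as mm9. Introns were points every 200 bp that met the rule for intron peaks. A peak in introns of several genes counted for each gene, and position and first introns were computed for peaks in 1 gene. Tables were handled with pandas 2.3.3 and numpy 2.4.6 under Python 3.11.15, intervals came from scipy 1.17.1, and plots from matplotlib 3.10.9. The intron rule in every list, and the overlaps of WT day 15 and Hira-null day 0 peaks with the other genotype, were checked against bedtools 2.31.1, with 0 differing peaks, and the scripts were tested on simulated data. The tandem repeat search was added after the sequences had been seen. Each of the 9 motifs was searched on both strands in windows of 300 bp, beside 44890 intron points. The masked share planned for these windows was not computed, since the genome used here is not masked.

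Named genes were the 5 per list with the most intron peaks or the highest-scoring peaks, the 5 with the largest difference between genotypes in each direction, with and without chromosomes 8 and 11, the 5 with the most peaks per 10 kb, and members of the gene lists. Some genes that this rule names are not reported here. Igf2r intron 2, Hira and the printed stretches were singled out from these after their values were seen. Sox2 of the pluripotency list was not found among genes with an intron. Members, gene lists and comparisons were chosen with earlier results of these data known. Alternatives were lists without chromosomes 8 and 11, a score of at least 100, equal list length, other overlap rules, other gene ends, flanks and transcripts, and windows of 100 bp.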

Additional observations from a re-analysis of the deposited data

How the results depend on the processing

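Of 276 values recomputed, 145 stayed within the counting interval of the reported value (counts of genes within 1.5 times) and 131 moved out of it. The first-intron share and the median position kept the order of Hira-null and WT at each day under every alternative run. The longest transcript and the removal of tandem repeats moved neither. No paired analysis was possible because each condition had 1 ChIP library. Added after seeing the data were the removal of peaks in Gm20388 or Fgfr2, of peaks reaching outside introns and of tandem repeats, and equal list length for the gene lists. Unknown depth, 1 library per condition and 1 Hira-null clone limit every comparison, and peak numbers and overlaps moved with score and list length. Signalling genes with a day 0 peak numbered 6 Hira-null and 15 WT in the full lists, but 5 Hira-null and 4 WT at scores from 100 upwards. With a score of at least 100, the intron share of the list was 52.62% in WT day 15 cells, 22.68% in Hira-null day 0 cells and 37.97% in WT day 0 cells. The median position was 0.4437 in WT day 0 cells. Genes with a peak were 820 in Hira-null day 15 cells, 2594 in WT day 15 cells, 1658 in Hira-null day 0 cells and 1949 in WT day 0 cells. Without a peak of the other genotype were 70.93% in Hira-null day 15 cells, 78.68% in Hira-null day 0 cells and 82.28% in WT day 0 cells, and the share without a peak of the other day was 86.11% in WT day 15 cells, 90.1% in Hira-null day 0 cells and 73.72% in WT day 0 cells. Cardiac transcription factors with a peak were 3 in Hira-null day 15 cells, 7 in WT day 15 cells, 0 in Hira-null day 0 cells and 5 in WT day 0 cells. Sarcomere and calcium handling genes with a peak were 3 in Hira-null day 15 cells, 3 in Hira-null day 0 cells and 5 in WT day 0 cells. Smooth muscle and cytoskeleton genes with a peak were 3 in Hira-null day 15 cells, 0 in Hira-null day 0 cells and 3 in WT day 0 cells. Extracellular matrix genes with a peak were 7 in Hira-null day 15 cells, 1 in Hira-null day 0 cells and 3 in WT day 0 cells. Pluripotency genes with a peak were 0 in Hira-null day 15 cells, 2 in WT day 15 cells and 5 in WT day 0 cells. Signalling receptors and effectors with a peak were 1 in Hira-null day 15 cells and 4 in WT day 0 cells. Chromatin regulators with a peak were 4 in Hira-null day 15 cells, 6 in Hira-null day 0 cells and 10 in WT day 0 cells. Long neuronal and synaptic genes with a peak were 2 in WT day 15 cells and 7 in WT day 0 cells. H3.3 genes and chaperones with a peak were 3 in WT day 15 cells, 2 in Hira-null day 0 cells and 1 in WT day 0 cells. With lists of equal length, the intron share of the list was 52.7% in WT day 15 cells, 22.3% in Hira-null day 0 cells and 37.9% in WT day 0 cells. The median position was 0.3999 in WT day 15 cells and 0.443 in WT day 0 cells. Genes with a peak were 1933 in WT day 15 cells, 1230 in Hira-null day 0 cells and 1858 in WT day 0 cells. Without a peak of the other genotype were 83.25% in Hira-null day 15 cells, 91.43% in WT day 15 cells, 74.86% in Hira-null day 0 cells and 84.67% in WT day 0 cells, and the share without a peak of the other day was 87.71% in Hira-null day 15 cells, 83.98% in WT day 15 cells, 84.89% in Hira-null day 0 cells and 77.69% in WT day 0 cells. Cardiac transcription factors with a peak were 6 in WT day 15 cells, 0 in Hira-null day 0 cells and 5 in WT day 0 cells. Sarcomere and calcium handling genes with a peak were 2 in Hira-null day 0 cells and 5 in WT day 0 cells. Smooth muscle and cytoskeleton genes with a peak were 0 in Hira-null day 0 cells and 3 in WT day 0 cells. Extracellular matrix genes with a peak were 5 in WT day 15 cells, 0 in Hira-null day 0 cells and 3 in WT day 0 cells. Pluripotency genes with a peak were 2 in WT day 15 cells, 2 in Hira-null day 0 cells and 5 in WT day 0 cells. Signalling receptors and effectors with a peak were 12 in WT day 15 cells, 3 in Hira-null day 0 cells and 4 in WT day 0 cells. Chromatin regulators with a peak were 12 in WT day 15 cells, 6 in Hira-null day 0 cells and 10 in WT day 0 cells. Long neuronal and synaptic genes with a peak were 1 in WT day 15 cells and 7 in WT day 0 cells. H3.3 genes and chaperones with a peak were 2 in WT day 15 cells, 1 in Hira-null day 0 cells and 1 in WT day 0 cells. Without chromosomes 8 and 11, the intron share of the list was 52.78% in WT day 15 cells and 37.81% in WT day 0 cells. The first-intron share was 20.63% in Hira-null day 15 cells and 34.38% in WT day 0 cells. Without a peak of the other genotype were 70.12% in Hira-null day 15 cells, 93.91% in WT day 15 cells and 80.92% in WT day 0 cells, and the share without a peak of the other day was 83.94% in WT day 15 cells and 77.93% in WT day 0 cells. With the other list widened by 1 kb, the share without a peak of the other genotype was 61.78% in Hira-null day 15 cells, 94% in WT day 15 cells, 63.18% in Hira-null day 0 cells and 81.95% in WT day 0 cells, and the share without a peak of the other day was 73.72% in Hira-null day 15 cells, 74.74% in WT day 15 cells, 86.91% in Hira-null day 0 cells and 64.12% in WT day 0 cells. With peaks wholly inside introns, the first-intron share was 26.3% in Hira-null day 15 cells, 40.54% in WT day 15 cells, 30.49% in Hira-null day 0 cells and 37.57% in WT day 0 cells. The median position was 0.5002 in Hira-null day 15 cells, 0.3763 in WT day 15 cells, 0.4596 in Hira-null day 0 cells and 0.3958 in WT day 0 cells. With 50% of the peak covered, the share without a peak of the other genotype was 71.63% in Hira-null day 15 cells, 96.45% in WT day 15 cells, 79.71% in Hira-null day 0 cells and 84.23% in WT day 0 cells, and the share without a peak of the other day was 84.62% in WT day 15 cells, 91.47% in Hira-null day 0 cells and 75.45% in WT day 0 cells. With the ends of every transcript, the intron share of the list was 28.12% in Hira-null day 15 cells, 49.85% in WT day 15 cells, 22.56% in Hira-null day 0 cells and 36.89% in WT day 0 cells. With peaks set to 1 kb, the share without a peak of the other genotype was 69.2% in Hira-null day 0 cells and 85.48% in WT day 0 cells, and the share without a peak of the other day was 82.28% in WT day 15 cells and 72.09% in WT day 0 cells. In genes with at least 3 introns, the first-intron share was 20.35% in Hira-null day 15 cells, 34.57% in WT day 15 cells, 25.17% in Hira-null day 0 cells and 31.62% in WT day 0 cells. With a flank of 1 kb, the intron share of the list was 32.41% in Hira-null day 15 cells, 55.94% in WT day 15 cells and 40.79% in WT day 0 cells. In windows of 100 bp, the share over that of intron points was 1.483 for the GATA letters in Hira-null day 15 cells, 1.011 for the GC box letters in WT day 15 cells and 2.657 for the GC box letters in Hira-null day 0 cells. Without peaks inside Gm20388 or Fgfr2, the first-intron share was 20.77% in Hira-null day 15 cells.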
